A study of Mus musculus with 6 samples.

Results

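The expression of 9 genes that encode transcription factors and cofactors of the granulocyte and monocyte lineages was examined in neutrophils from the peritoneum of cGAS knockout mice. The genes were chosen by symbol (*Spi1*, *Cebpa*, *Cebpb*, *Gfi1*, *Runx3*, *Id1*, *Id2*, *Mxd1* and *Cbfa2t3*), and all 9 were found among the 38739 genes of the table. The 23049 genes not at 0 everywhere were tested, the 9 included. Cells of 3 untreated samples, kept in medium alone, were compared with cells of 3 samples kept for 2 h with LPS, the lipopolysaccharide of *E. coli* 026:B6, at 500 ng/mL per the labels (the methods of the study give a lower dose). The mice were males of the strain written C57B/L6 in the labels, 8 weeks old per the methods, and were injected with thioglycolate to draw neutrophils into the peritoneum before the cells were washed out. All 6 samples lacked cGAS, the cytosolic DNA sensor, so no wild-type cells were compared here. The labels do not say whether samples of a group came from separate mice, so the spread between them may be partly technical. No sorting of the lavage cells is described.

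Lineage factors of this kind decide which blood cell a progenitor becomes and, in the mature cell, keep its genes accessible. PU.1, the product of *Spi1*, and C/EBPα act at the level of the shared progenitor of granulocytes and macrophages, GFI1 represses monocyte genes during granulocyte formation, and C/EBPβ takes over when granulocytes are needed quickly in infection and also switches on cytokine and acute phase genes. ID proteins have no DNA-binding part and hold E proteins away from DNA. RUNX3 is best known in cytotoxic lymphocytes and dendritic cells, MXD1 competes with MYC for MAX as cells stop dividing, and CBFA2T3, also called ETO2, is a corepressor of the ETO family.

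Values were taken as scaled TPM, a length-corrected share of transcripts from Kallisto, divided by 1 factor per sample before deposit. The deposited table itself is named for normalized counts. The values look like means over the transcripts of a gene rather than sums, in which case levels of different genes depend on how many transcripts each has. Fold changes are differences of log2(value + 1) between the group means, LPS minus untreated, so changes of low genes are understated. A gene was called at an unadjusted p under 0.01 in limma with a log2 fold change beyond 2 in either direction, and the Benjamini-Hochberg adjusted p over all 23049 genes is given beside it.

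*Id2* was the 1 gene of the 9 that passed both limits. The promoter of *Id2* is shown for that reason, and those of *Cebpb* and *Cebpa* because, of these 2 genes of 1 family, the first did not overlap between the groups and the second did. RefSeq gave the bases from 250 before to 50 after a transcription start on build GRCm38.p6, at chr12:25096043-25096342 (minus strand) for *Id2*, chr2:167688665-167688964 (plus strand) for *Cebpb* and chr7:35119043-35119342 (plus strand) for *Cebpa*. Capitals mark matches on either strand to the letters searched.
Id2: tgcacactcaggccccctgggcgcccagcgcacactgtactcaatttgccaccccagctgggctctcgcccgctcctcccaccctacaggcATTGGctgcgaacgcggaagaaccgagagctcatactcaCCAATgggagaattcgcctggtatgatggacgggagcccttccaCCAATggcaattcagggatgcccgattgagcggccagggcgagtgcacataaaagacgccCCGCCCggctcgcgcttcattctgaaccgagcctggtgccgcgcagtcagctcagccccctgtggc
Cebpb: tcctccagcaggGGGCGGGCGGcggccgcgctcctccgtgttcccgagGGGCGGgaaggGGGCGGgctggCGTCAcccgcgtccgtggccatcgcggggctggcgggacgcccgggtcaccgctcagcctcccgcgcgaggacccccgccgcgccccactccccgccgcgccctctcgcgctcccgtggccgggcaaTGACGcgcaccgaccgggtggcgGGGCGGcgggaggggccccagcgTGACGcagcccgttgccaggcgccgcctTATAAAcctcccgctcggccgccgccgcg
Cebpa: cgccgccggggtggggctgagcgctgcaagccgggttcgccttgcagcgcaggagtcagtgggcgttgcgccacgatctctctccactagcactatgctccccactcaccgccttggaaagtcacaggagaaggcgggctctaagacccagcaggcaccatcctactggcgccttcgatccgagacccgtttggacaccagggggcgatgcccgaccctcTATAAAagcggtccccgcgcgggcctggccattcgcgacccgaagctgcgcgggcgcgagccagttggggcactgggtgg
The letters searched were TTGCNNAA (C/EBP), GAGGAAG (PU.1), TGACGTCA (CRE), its first part TGACG, which also lies in the CRE, CACGTG (E-box), TATAAA (core promoter), CCAAT (bound by NF-Y), GGGCGG (GC box) and a consensus of NF-κB. The *Id2* promoter held CCAAT at 3 positions, -159, -120 and -76 from the start, and 1 GC box. CCAAT occurred in 37.4% and the GC box in 35.7% of all 32851 promoters of this length. In *Cebpb* there were 5 GC boxes, of which the first pair overlap, 3 copies of TGACG, which 20.8% of promoters held, and TATAAA past the start. The *Cebpa* promoter held TATAAA alone, at -30, as did 13.6% of promoters. The promoter table used here held 7 of the 9 genes, and those of *Spi1* and *Id1* were not analysed here.

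The libraries differed in composition, both between the groups and between samples of a group. Protein-coding genes made up 21.6 to 29.0% of the summed values in untreated and 50.6 to 60.0% in LPS samples. Pseudogenes made up 64.7 to 70.7% in untreated and 32.3 to 40.5% in LPS samples. All values summed to 603599 to 713384 in untreated and 404675 to 465904 in LPS samples. These shares and sums split by group, so an effect of LPS and a difference between libraries cannot be told apart. Every fold change below carries this limit. *Cgas*, the gene targeted, was at 0.180 to 0.307 scaled TPM in untreated and 0.0286 to 0.184 in LPS samples. Read depth per sample is unknown. Of 14 neutrophil marker genes 12 were in the table, and their summed level was 9741 to 28504 scaled TPM in untreated and 16076 to 54649 in LPS samples, carried by the calgranulins *S100a8* and *S100a9*. It was highest in the sample numbered 2 of each group, at 28504 and 54649, against 9741 to 18262 in the other 4 samples. The same pair had the lowest B cell marker sums, 143 and 67.1 against 225 to 543 in the others, with *Cd79a* at 27.4 to 457 over all samples. Erythroid genes, mostly haemoglobins, summed to 5629 and 4651 in the samples numbered 3 and to at most 572 elsewhere. Monocyte and macrophage genes (12 of 15 in the table) summed to 1077 to 1542 in untreated and 805 to 1115 in LPS samples. Of these 12, 6 had a fold change above 0 and 6 below. Their LPS values lay all above in 2 and all below in 4, as in 13.1% and 9.75% of all genes. *C1qb*, a complement component of macrophages, was the 1 called (log2 fold change 2.62, limma adjusted p = 0.0642). Among the 12 neutrophil markers 5 had a fold change above 0 and 7 below, with LPS values all above in 0 and all below in 4. The 1 called was *Cxcr2*, a chemokine receptor, which fell by 2.67 on the log2 scale (limma adjusted p = 0.0944). *Lcn2* was at 3.02, *S100a8* at 1.11 and *S100a9* at 0.78, none of them past the limits. All 6 samples thus held abundant neutrophil transcripts and those of other blood cells in differing amounts. In such bulk samples fewer cells of a type and less RNA per cell cannot be told apart.

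**Figure D1:**
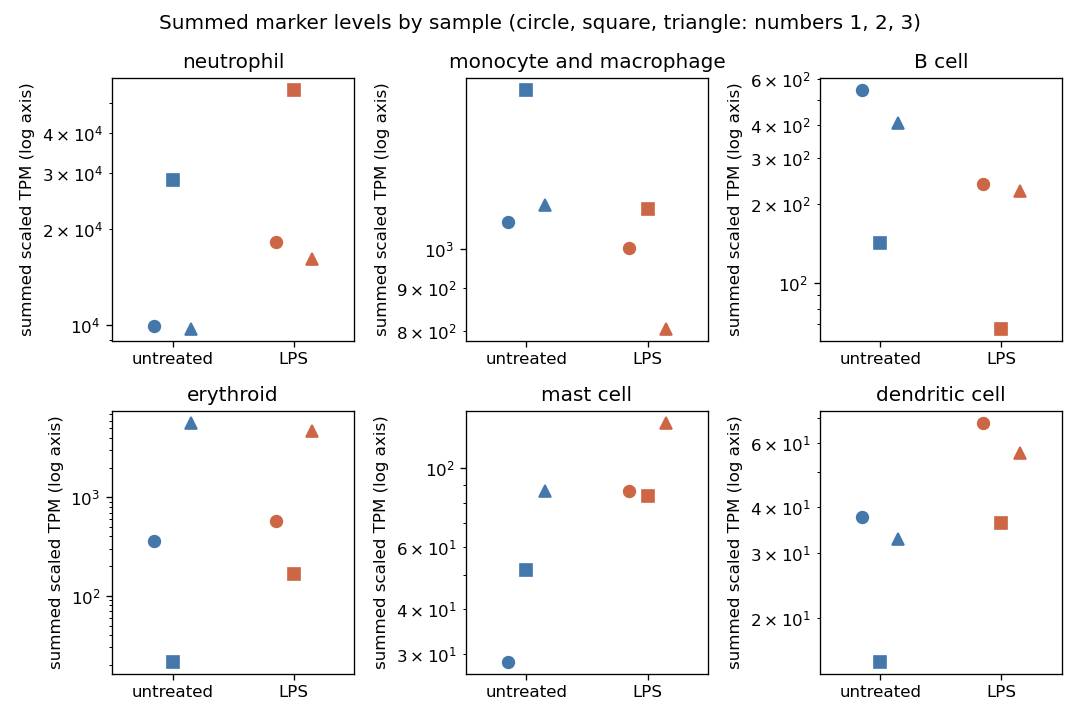
Summed level of marker genes of 6 cell types in each sample (scaled TPM, log axis), with the untreated samples in blue, the LPS samples in orange and the symbol giving the sample number. The samples numbered 2 (squares) had the highest neutrophil sums, 28504 and 54649, and the samples numbered 3 (triangles) the highest erythroid sums, 5629 and 4651.

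The values of the 9 genes were read against how often any gene was called. Of all genes tested, 1.69% were called higher after LPS and 1.31% lower (389 and 301 genes). Of the 9, 1 was called higher (*Id2*) and 0 lower, while 3 were higher and 1 lower at an unadjusted p under 0.05 in limma, as were 10.3% and 6.66% of all genes. With voom 3 of the 9 were called higher and 0 lower, against 6.73% and 0.768% of all genes. Voom is made for counts, which these values were not taken to be. It also scales each sample to its summed value, which was lower in all LPS samples. No adjusted p of the 9 was under 0.05, a limit that 0.894% of all genes passed higher and 0.946% lower. The LPS values lay above the untreated values without overlap in 4 genes (*Id1*, *Id2*, *Cebpb* and *Cbfa2t3*) and below them in 1 (*Runx3*), where 13.1% and 9.75% of all genes did so. The log2 fold change was above 0 in 8 of the 9, and its median was 0.63. Over all genes tested the median was 0.01, and over the 2851 protein-coding genes with a mean of at least 5 it was 0.51. All of the 9 are protein-coding. Of the 12754 protein-coding genes tested 295 were called higher and 45 lower, with LPS values all above in 2292 and all below in 1111. Among the 2851 with a mean of at least 5 these counts were 227, 39, 767 and 320, so a rise was more common there than over all genes.

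**Figure D2:**
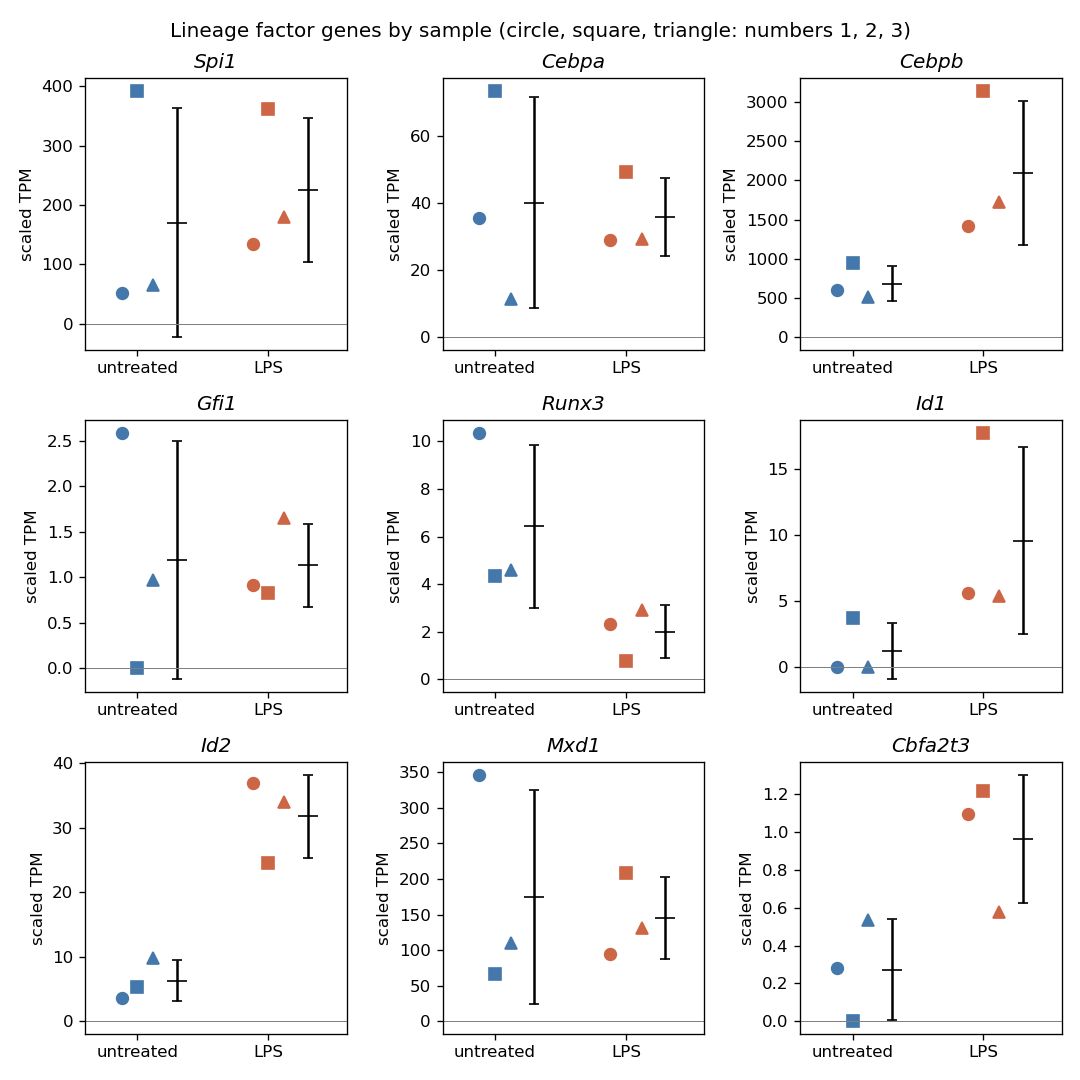
Scaled TPM of the 9 genes in each sample, with the symbol giving the sample number and the bar the mean ± SD of 3 samples beside the points. *Id2* was at 3.66 to 9.79 in untreated and 24.6 to 36.9 in LPS samples, while the values of *Spi1*, *Cebpa*, *Gfi1* and *Mxd1* overlapped.

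Both ID protein genes were higher in all LPS samples, and *Id2* passed both limits. *Id2* (chromosome 12, 25143798 to 25147282, minus strand, GRCm39), whose product holds E proteins off DNA and is needed for several innate lymphoid and dendritic lineages, was at 3.66, 5.32 and 9.79 scaled TPM in the untreated and at 36.9, 24.6 and 33.97 in the LPS samples. The lowest LPS value was 24.6 and the highest untreated value 9.79, so the groups did not overlap. The means were 6.26 ± 3.17 and 31.8 ± 6.43 scaled TPM (SD, n = 3 each), a 5.08-fold ratio. *Id2* thus rose by a log2 fold change of 2.25 (SE 0.41, 95% interval 1.26 to 3.24), inside the limit on p and with an adjusted p of 0.0569 in limma. The call rests on the first untreated sample, in which *Id2* was lowest, since the log2 fold change was 1.97 without it. Without both samples numbered 2 it was 2.36 (limma adjusted p = 0.143), which is outside the limit on p. A pseudocount of 5 gave 1.73 and rescaling to protein-coding genes 1.80, both under the fold limit.

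The *Id2* locus has antisense genes and other cells could carry its transcript. *Gm36287* and *Gm59395*, long noncoding RNAs, overlap exons of *Id2* on the opposite strand, over 466 and 796 identical bases. *Gm36287* was at 1.24, 0 and 0 scaled TPM in untreated and 0, 1.09 and 0.220 in LPS samples, far under *Id2*, and *Gm59395* was not analysed here. The library kit keeps the strand, but whether the counting used it is not given in the sources used here. Dendritic cell markers, 6 genes mostly carried by *Itgax*, summed to 15.2 to 37.6 in untreated and 36.3 to 67.7 in LPS samples. *Itgax* alone was at 13.8 to 32.4 in untreated and 34.1 to 63.8 in LPS samples. Of the 6, 4 had a fold change above 0 and 2 below, *Xcr1* (-0.71) and *Siglech* (-0.13). LPS values lay all above in 1 (*Itgax*) and all below in 1 (*Siglech*), as in 13.1% and 9.75% of all genes. The 8 T and NK cell markers summed to 15.5 to 18.4 in untreated and 7.43 to 19.9 in LPS samples. The part of these cell types in the result for *Id2* was not tested.

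*Id1*, a target of BMP signalling in many cell types, was low. In the untreated samples its values were 0, 3.70 and 0 scaled TPM, and it was at 5.59, 17.7 and 5.37 in the LPS samples (chromosome 2, 152566218 to 152579544, plus strand, GRCm39). The sample numbered 2 was the highest of each group, and the groups did not overlap, with 3.70 against 5.37 at the nearest points. The log2 fold change of 2.46 (SE 0.78, 95% interval 0.56 to 4.36) passed the limit on the fold but not that on p (limma adjusted p = 0.180). With 2 untreated values at 0 it depends on the pseudocount, at 4.61 with 0.1 and 1.17 with 5. *Id1* passed both limits without the second untreated sample (3.21, limma adjusted p = 0.0787) and without both samples numbered 2 (2.70, limma adjusted p = 0.0919). An antisense gene inside *Id1*, *Gm75058*, shares 245 bases and was not analysed here.

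The other ID genes and the E proteins they bind gave no call. *Id3*, named after its values were seen, was at 1.66, 0.658 and 2.50 scaled TPM in untreated and 2.15, 3.56 and 1.76 in LPS samples, and the values overlapped (log2 fold change 0.45, 95% interval -0.55 to 1.45, limma adjusted p = 0.563). Of the 10 genes listed as E proteins, ID proteins and the SCL complex, 8 were tested, 0 were called in either direction, 0 had an unadjusted p under 0.05 in limma, and 4 had a fold change above 0. Their median was -0.12, beside 0.01 over all genes. None had a mean of at least 5.

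The protein-coding genes whose values followed those of *Id2* most closely over the 6 samples were *Vps72* (r = 0.992), *Chrm3* (r = 0.992) and *Ptges3* (r = 0.991), out of 2850 with a mean of at least 5. *Vps72* encodes a subunit of chromatin remodelling complexes, *Chrm3* a muscarinic acetylcholine receptor and *Ptges3* a co-chaperone of HSP90. *Ptges3* was at 28.6, 33.0 and 42.3 scaled TPM in the untreated and 102.0, 86.6 and 86.7 in the LPS samples. These correlations are descriptions on the log2(value + 1) scale, and most of each is the difference between the 2 groups that all 4 genes share.

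Neither of the 2 C/EBP genes passed both limits, and the groups did not overlap in *Cebpb* but did in *Cebpa*. *Cebpb* (chromosome 2, 167530835 to 167532338, plus strand, GRCm39), the factor of emergency granulocyte formation, was at 600.04, 941 and 512 scaled TPM in the untreated and at 1423, 3142 and 1723 in the LPS samples. Each LPS value exceeded each untreated one, and the sample numbered 2 was the highest of its group both times. The means were 684 ± 227 and 2096 ± 918 scaled TPM (SD, n = 3 each), a ratio of 3.06, and the log2 fold change was 1.58 (SE 0.43, 95% interval 0.54 to 2.61). It passed the limit on p but not that on the fold, and its adjusted p was 0.128 in limma. Other scalings gave 1.09 (rescaled to protein-coding genes), 1.37 (median centring) and 2.21 (voom). The last was past both limits (limma adjusted p = 0.00454), but voom also moved the median of 11073 genes by 0.65. *Peds1*, on the opposite strand and not analysed here, overlaps the exon of *Cebpb*, with a near-identical stretch of 320 bases.

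*Cebpa* (chromosome 7, 34818718 to 34821353, plus strand, GRCm39), which starts the granulocyte programme in progenitors, was at 35.7, 73.5 and 11.3 scaled TPM in the untreated and at 28.9, 49.2 and 29.3 in the LPS samples. Untreated values spanned a wider range than the LPS values, which lay inside it. The log2 fold change was 0.15 with a 95% interval of -1.54 to 1.83 (limma adjusted p = 0.921), which leaves room for a change of more than 2-fold either way. Its sign turned to -0.55 without the third untreated sample and to -0.10 without the second LPS sample. The antisense RNA *Gm45091* overlaps an exon of *Cebpa* and was at 2.23, 6.01 and 0 scaled TPM in untreated and 0, 1.59 and 0 in LPS samples.

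Within each sample *Cebpb* was higher than *Cebpa*, and the ratio does not depend on the scaling of the sample. It was 16.8, 12.8 and 45.5 in the untreated and 49.2, 63.9 and 58.8 in the LPS samples. All LPS ratios lay above all untreated ones, and the third untreated sample, where *Cebpa* was lowest, lay close to the first LPS sample. The mean log2 ratio differed by 1.41, with p = 0.1 in a two-sided exact permutation test, the smallest p that 3 against 3 samples allow, and 0.3 after adjustment over the 3 ratios computed.

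The list of other C/EBP family genes and regulators had 8 genes, of which *Cebpg*, *Ddit3*, *Trib2* and *Trib3* were tested. *Cebpd*, *Cebpe*, *Cebpz* and *Trib1* were not among the genes of the table, so nothing is known of them here. Of the 4 tested none was called, none had an unadjusted p under 0.05 in limma, and the median log2 fold change was 0.37. *Trib3*, which encodes a pseudokinase, had the largest increase (0.85, limma adjusted p = 0.554). *Ddit3*, the stress-induced family member CHOP, had the smallest value among those with a mean of at least 5 (0.21, limma adjusted p = 0.882).

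*Spi1* (chromosome 2, 90912562 to 90946101, plus strand, GRCm39), which encodes PU.1, the ETS factor needed for all myeloid cells, varied more within groups than between them. It was at 52.1, 393 and 65.6 scaled TPM in the untreated and at 134, 362 and 180 in the LPS samples. The untreated sample numbered 2 was the highest of all 6, and its value was 7.54 times that of the lowest untreated sample. The log2 fold change was 0.89 (SE 0.85, 95% interval -1.19 to 2.97, limma adjusted p = 0.581). Without both samples numbered 2, which had the highest neutrophil marker sums, it was 1.39 (limma adjusted p = 0.123), and without the second untreated sample alone 1.80. Without the first untreated sample it was 0.35. *Spi1*, *Cebpa*, *Cebpb* and *Id1* were all highest, within each group, in the sample numbered 2, and the part of the cell mixture in this was not tested.

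The ratio of *Cebpb* to *Spi1* was 11.5, 2.40 and 7.80 in untreated and 10.6, 8.67 and 9.56 in LPS samples, so the groups overlapped. The mean log2 ratio differed by 0.68 (two-sided exact permutation p = 0.5, adjusted p = 0.5). The ratio of *Id2* to *Spi1* was 0.0703, 0.0135 and 0.149 against 0.276, 0.0678 and 0.189, also with overlap, and its mean log2 differed by 1.54 (exact permutation p = 0.3, adjusted p = 0.45).

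Of 12 ETS factors listed as related to PU.1, 7 were tested, 4 with a fold change above 0, and 0 were called. At an unadjusted p under 0.05 in limma 2 were higher and 0 lower (10.3% and 6.66% of all genes), and their median was 0.30. *Spib*, the closest relative of PU.1 and mainly a B cell and plasmacytoid dendritic cell factor, was at -0.13 (limma adjusted p = 0.928), and *Fli1*, an ETS factor of megakaryocytes and lymphocytes, at -0.65 (limma adjusted p = 0.410). The 2 below that p, named after their values were seen, were *Spic*, a factor of red pulp macrophages, and *Etv3*, a repressor induced in activated macrophages. *Spic* was at 0.134, 0.174 and 0.124 scaled TPM in untreated and 5.16, 1.86 and 2.65 in LPS samples, without overlap (1.81, limma adjusted p = 0.0781). *Etv3* differed by 1.29 (limma adjusted p = 0.116).

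*Gfi1* (chromosome 5, 107864523 to 107873902, minus strand, GRCm39), the repressor that keeps granulocytes from the monocyte fate, was near the bottom of the range. Untreated samples gave 2.59, 0 and 0.965 scaled TPM, and LPS samples 0.910, 0.827 and 1.65. All LPS values lay inside the untreated range. Its fold change was 0.13 on the log2 scale (95% interval -1.16 to 1.42, limma adjusted p = 0.908), and it was -0.34 without the second untreated sample, where *Gfi1* is listed at 0. Its antisense neighbour *A430072P03Rik* was at most 0.724.

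GFI1 works through the LSD1, CoREST and HDAC proteins, and 6 of the 7 genes listed were tested. None was called, and 1 was higher and 1 lower at an unadjusted p under 0.05 in limma (10.3% and 6.66% of all genes). The median was 0.02. *Hdac2* had the largest increase of those with a mean of at least 5 (1.00, limma adjusted p = 0.558). *Hdac1*, its near relative, was at 14.6, 11.4 and 17.3 scaled TPM in untreated and 6.67, 5.58 and 7.03 in LPS samples, without overlap (-1.04, limma adjusted p = 0.143). *Kdm1a*, which encodes LSD1 and is named after its values were seen, was at 0.496, 0.797 and 2.36 in untreated and 4.35, 5.67 and 4.59 in LPS samples (1.49, limma adjusted p = 0.127).

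*Runx3* was the 1 gene of the 9 whose LPS values were all below the untreated ones. It lies on chromosome 4 (134847952 to 134905301, plus strand, GRCm39) and encodes the RUNX factor of cytotoxic T cells. It was at 10.4, 4.34 and 4.58 scaled TPM in the untreated and at 2.34, 0.763 and 2.90 in the LPS samples. The means were 6.43 ± 3.41 and 2.00 ± 1.11 scaled TPM (SD, n = 3 each), a ratio of 0.311. On the log2 scale the fold change was -1.29 (SE 0.48, 95% interval -2.47 to -0.12, limma adjusted p = 0.247), and neither limit was passed. T and NK cell markers summed to 15.5 to 18.4 in untreated and to 7.43 to 19.9 in LPS samples, lowest in the second LPS sample, where *Runx3* was lowest too. Their part in the result was not tested.

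*Cbfa2t3* (chromosome 8, 123351878 to 123426045, minus strand, GRCm39), the ETO2 corepressor, was at 0.280, 0 and 0.535 scaled TPM in the untreated and at 1.09, 1.22 and 0.577 in the LPS samples. The groups did not overlap, but the third sample of each lay close, at 0.535 and 0.577. A log2 fold change of 0.63 was found (95% interval -0.07 to 1.34, limma adjusted p = 0.332). A processed pseudogene, *Gm15899*, lies inside *Cbfa2t3* on the same strand (123410341 to 123410578) with no shared exon. Its values were 0.00018, 0 and 0 in untreated and 260.003, 281 and 287 in LPS samples, where *Cbfa2t3* itself was at most 1.22.

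RUNX proteins bind DNA with CBFβ and repress with TLE and ETO proteins and their NCOR partners, and 6 of 9 such genes were tested. *Runx1*, *Runx2* and *Hdac3* were not among the genes of the table. None of the 6 was called, and 0 were higher and 2 lower at an unadjusted p under 0.05 in limma (10.3% and 6.66% of all genes). The median was -0.46, the lowest of the 7 lists of related factors. Groups did not overlap in 4 of the 6, named after their values were seen, all with LPS below (9.75% of all genes). These were *Cbfa2t2*, *Runx1t1*, *Tle3* and *Ncor1*. *Tle3*, a Groucho corepressor, was at 8.79, 12.1 and 23.0 scaled TPM in untreated and 5.55, 6.12 and 6.28 in LPS samples (-1.06, limma adjusted p = 0.255). *Ncor1*, the nuclear receptor corepressor, was at 7.75, 7.53 and 6.39 against 3.60, 4.01 and 2.98 (-0.86, limma adjusted p = 0.188). *Runx1t1* was at most 0.105 in any sample and *Cbfa2t2* at most 3.25. *Cbfb*, which encodes CBFβ, was at 1.25, 0.906 and 9.62 in untreated and 7.29, 6.94 and 7.86 in LPS samples, with overlap (1.23, limma adjusted p = 0.427).

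*Mxd1* (chromosome 6, 86624024 to 86646218, minus strand, GRCm39), the MAX partner that opposes MYC in mature granulocytes, had nearly the same mean of logs in both groups. It was at 347, 67.0 and 109.5 scaled TPM in the untreated and at 94.8, 209 and 131 in the LPS samples. The first untreated sample was the highest and the second the lowest of all 6. Its log2 fold change was 0.0092 (SE 0.67, 95% interval -1.62 to 1.64, limma adjusted p = 0.997), and it was 0.68 without the first and -0.50 without the second untreated sample.

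Of the 14 genes listed for the MYC, MAX and MXD network, *Myc* and *Mxi1* were not in the table. The other 12 were tested, 6 with a fold change above 0, and none was called. At an unadjusted p under 0.05 in limma 2 were higher and 0 lower (10.3% and 6.66% of all genes), and the median was 0.02. *Sin3b*, the corepressor scaffold that MXD1 binds, was at 3.96, 2.69 and 10.6 scaled TPM in untreated and 11.99, 17.9 and 15.3 in LPS samples, without overlap (1.41, limma adjusted p = 0.219). *Mlxip*, a glucose-sensing partner of MLX, was at -0.60 (limma adjusted p = 0.466).

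**Figure D3:**
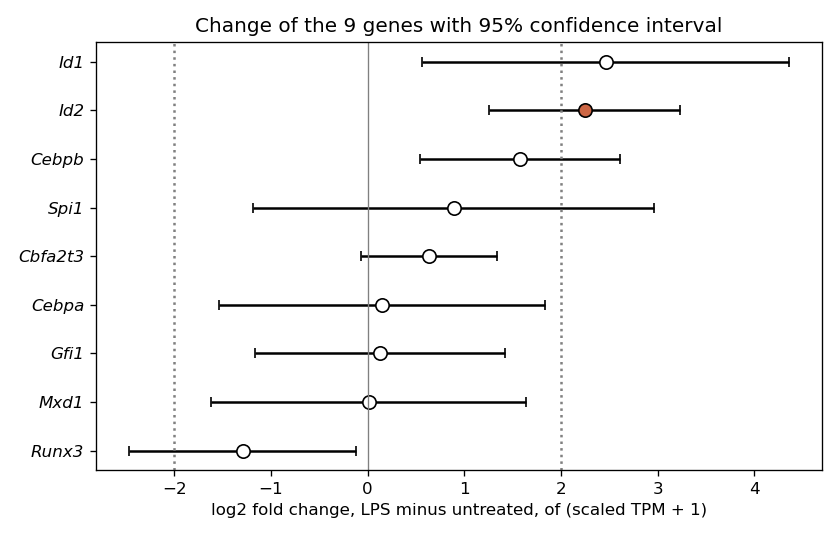
Log2 fold change of each of the 9 genes, LPS minus untreated, on the scale of scaled TPM + 1, with its 95% interval from limma, the limits of 2 either way as dotted lines and the called gene filled. The interval of *Id2* runs from 1.26 to 3.24, those of *Cebpb*, *Id1* and *Runx3* also miss 0, and those of the other 5 genes hold it.

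The order of the levels was much alike in both groups. In untreated samples *Cebpb* led with a mean of 684 scaled TPM, followed by *Mxd1* (174), *Spi1* (170) and *Cebpa* (40.2). Then came *Runx3* (6.43), *Id2* (6.26), *Id1* (1.23), *Gfi1* (1.19) and *Cbfa2t3* (0.272). Of neighbours in that order, *Cebpb* and *Mxd1*, and *Cebpa* and *Runx3*, did not overlap between samples, and all others did. After LPS *Id2* (31.8) and *Id1* (9.57) stood above *Runx3* (2.00). There *Cebpb* and *Spi1*, *Mxd1* and *Cebpa*, *Id2* and *Id1*, and *Id1* and *Runx3* did not overlap as neighbours. TPM is per length, but averaging over transcripts would bear on this order. The third untreated value returned to 6 digits, as Kallisto writes them, when multiplied by 8 for *Gfi1*, 7 for *Cbfa2t3* and 2 for *Mxd1*. It did so without any factor for *Cebpb*, so *Gfi1*, *Cbfa2t3* and *Mxd1* may stand higher as sums over transcripts. No such factor was found for *Spi1*, *Cebpa*, *Runx3* and *Id2*. Values of 5 of the genes examined are given to 7 digits only, and such rounding can hide a factor. The search thus cannot decide whether *Spi1*, *Cebpa*, *Runx3* and *Id2* were averaged, and they too may stand higher as sums. The 8 of *Gfi1* is not its number of transcripts in GENCODE M39, which is 4.

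Over all 7 lists of related factors 55 of 75 genes were tested, and 0 were called higher or lower. At an unadjusted p under 0.05 in limma 8 were higher and 3 lower (10.3% and 6.66% of all genes), while voom called 7 higher and 0 lower (6.73% and 0.768% of all genes). A fold change above 0 was found in 30 of the 55, the median was 0.05, and LPS values lay all above in 9 and all below in 7 (13.1% and 9.75% of all genes). Among 12 tested of 15 other myeloid lineage factors, 8 were above 0, 3 were higher at an unadjusted p under 0.05 and the median was 0.48. *Irf4*, an interferon regulatory factor of dendritic cells and alternatively activated macrophages, was at 11.4, 9.47 and 1.09 scaled TPM in untreated and 36.02, 12.3 and 36.02 in LPS samples, without overlap (2.02, limma adjusted p = 0.286). *Ikzf1*, a lymphoid and myeloid zinc finger factor, was at 0.25 (limma adjusted p = 0.664).

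**Figure D4:**
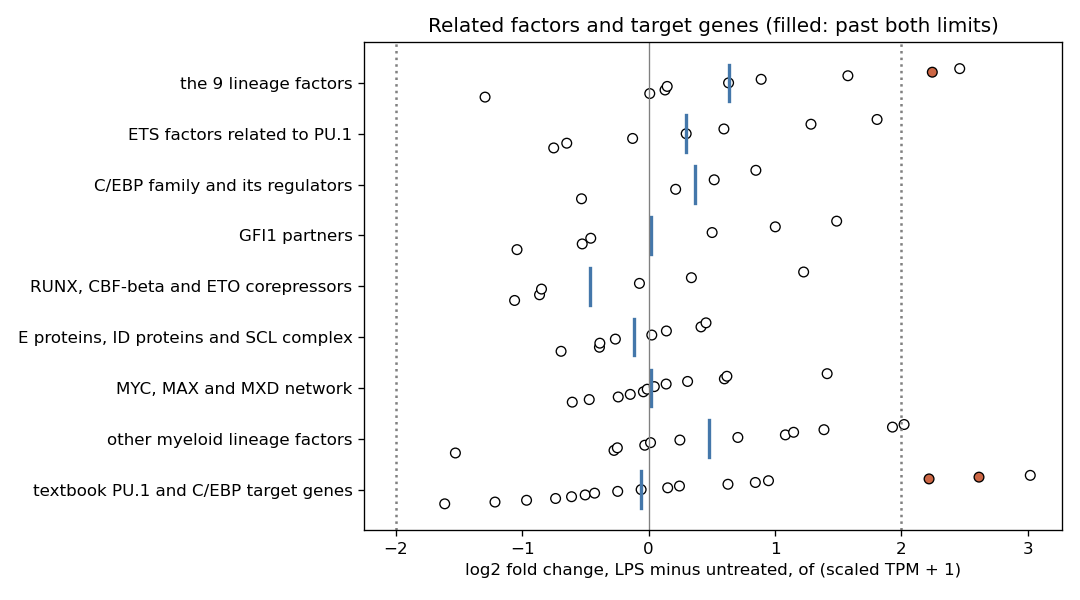
Log2 fold change, LPS minus untreated, of each tested gene of the 9 lineage factors, the 7 lists of related factors and the textbook target genes, with called genes filled, the list's median as a bar and the limits as dotted lines. Called genes were *Id2* among the 9 and *Il1b* and *Il6* among the targets, and medians of the lists of related factors lay between -0.46 and 0.48.

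Of 25 textbook targets of PU.1 and C/EBP factors 17 were tested, and 2 rose. At an unadjusted p under 0.05 in limma 4 were higher and 2 lower (10.3% and 6.66% of all genes). *Il1b*, the proinflammatory cytokine IL-1β, rose from 178, 478 and 397 to 972, 2353 and 1504 scaled TPM (log2 fold change 2.22, limma adjusted p = 0.0973). *Il6*, a target of C/EBPβ, was at 0.246, 0 and 0.728 in untreated and 11.6, 2.39 and 10.6 in LPS samples (2.61, limma adjusted p = 0.0901). The median of the list was -0.06, with 8 genes above 0 and 9 below. Its primary granule genes, which neutrophil precursors transcribe, were near 0, with *Mpo* at 0.0181 to 0.138 scaled TPM in all samples and *Prtn3* listed at 0 in untreated and at 0.0532 to 0.184 in LPS samples.

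Genes of precursors and dividing cells summed to 23.8 to 37.6 scaled TPM in untreated and 22.0 to 37.8 in LPS samples, 9 genes of 11. *Mki67*, a marker of dividing cells, rose from 1.17, 0.197 and 0.792 to 6.19, 3.78 and 9.28 (2.08, limma adjusted p = 0.0724). The other 8 genes gave no call. Of the 9, 5 had a fold change above 0 and 4 below, namely *Top2a* (-0.03), *Cdk1* (-0.08), *Ccnb2* (-0.10) and *Pcna* (-0.30). The median of the 9 was 0.17. Over all genes tested 1.69% were called higher.

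**Figure D5:**
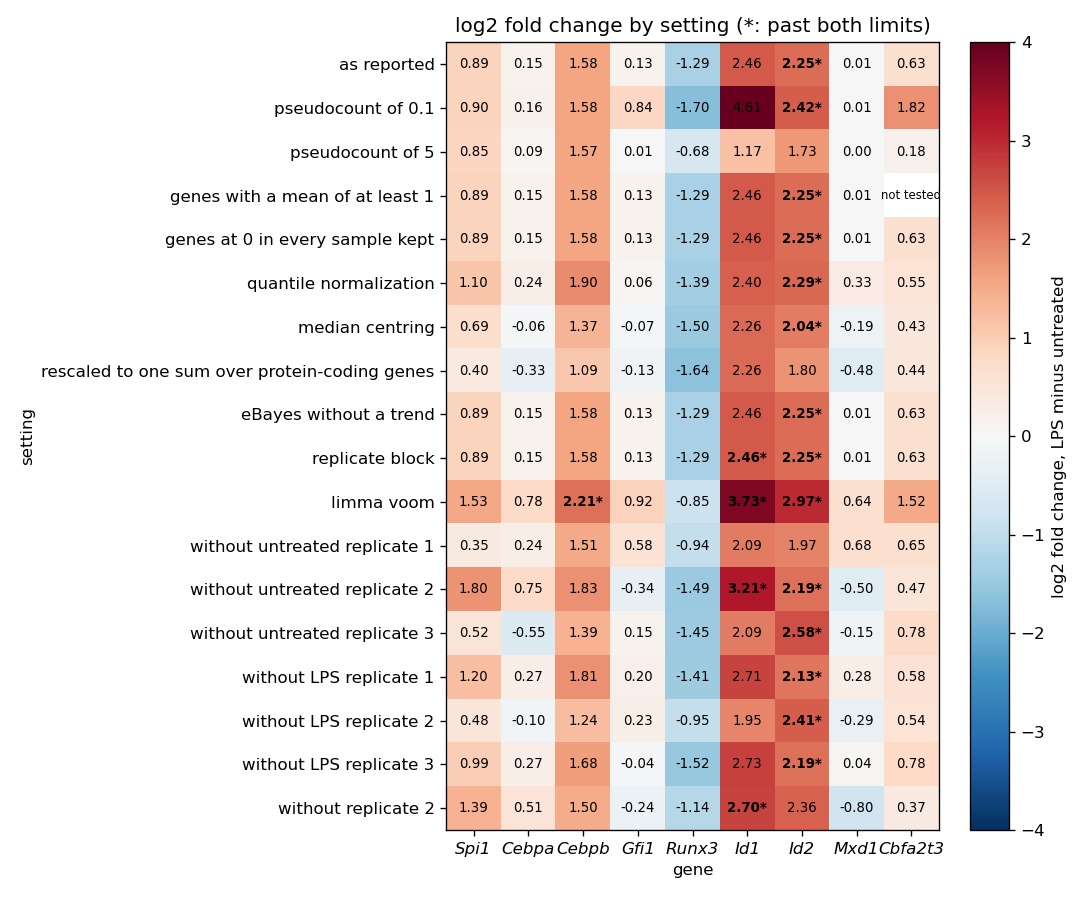
Log2 fold change of the 9 genes (columns) under the main setting and 17 alternatives (rows), with a star where both limits were passed. *Id2* ranged from 1.73 to 2.97 and *Runx3* from -1.70 to -0.68 without a change of sign, while *Cebpa*, *Gfi1* and *Mxd1* took both signs.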

How the data were processed

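Values of 3 untreated and 3 LPS samples were analysed, with groups from the titles. The authors trimmed reads with fastp, aligned them to GRCm39 (STAR), ran Kallisto on the transcripts and normalized by edgeR, and the TPM values were then deposited. The submitters' processing notes also list mm10, and versions and annotation release are not given in the sources used here. The deposited table is named for normalized counts, but its values were taken as TPM averaged over transcripts and divided by 1 factor per sample. Sequencer and LPS dose differ between labels and methods. Read depth is unknown, so no interval for counting error is given.

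The 15690 genes at 0 everywhere were left out and limma 3.58.1 (R 4.3.3, two-sided, lmFit and eBayes with trend) was run for 23049 genes on log2(value + 1), without covariates, after the fit was tested on simulated data. Calls need p under 0.01 and a log2 fold change beyond 2. Ratios of genes were compared by exact permutation.

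The 9 genes and all lists were chosen with earlier results of these data known. Named were the 9, the called genes of each list and, in lists of factors, the largest rise and fall among genes with a mean of at least 5. The 3 protein-coding genes most correlated with a called gene were named too, and the text marks any other gene chosen by its values. Overlaps and near-identical stretches (at least 95% over 150 bases) come from GENCODE M39 and blastn 2.17.0. Alternatives were pseudocounts of 0.1 and 5, a mean of at least 1, genes at 0 kept, quantile normalization, median centring, rescaling to protein-coding genes, eBayes without a trend, a replicate block, voom, an adjusted p under 0.05 and leaving out each sample. Leaving out both samples numbered 2 was added after seeing the data. Python 3.11.15, pandas 2.3.3 and matplotlib 3.10.9 were used.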

Additional observations from a re-analysis of the deposited data

How the results depend on the processing

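Precision rests on 3 samples per group, and each interval of *Spi1*, *Cebpa*, *Gfi1* and *Mxd1* holds changes of more than 2-fold. The number of the 9 genes called higher was 1, against 0 with a pseudocount of 5, with rescaling to protein-coding genes and at an adjusted p under 0.05, and 3 (*Cebpb*, *Id1*, *Id2*) with voom. It ranged from 0 to 2 when samples were left out, 0 without the first untreated sample, 2 (*Id1*, *Id2*) without the second, and 1 (*Id1*) without both samples numbered 2. The number called lower was 0 throughout. Called higher among related factors were 2 (*Spic*, *Myb*) with a pseudocount of 0.1, 7 with voom and 0 to 2 with samples left out (*Cbfb* without the third untreated sample, *Spic* and *Myb* without the second LPS sample), and 0 to 1 were lower (*Bhlhe41*, without the second untreated sample or both numbered 2). Of all genes, 389 higher and 301 lower became 856 and 493 with a pseudocount of 0.1, 129 and 168 with one of 5, 221 and 516 after rescaling, 1552 and 177 with voom, and 206 higher at the adjusted limit. Leaving samples out gave 238 to 434 higher, the fewest without the third LPS sample, and 241 to 375 lower. The share of calls that were higher was 56.4%, against 42.8% after median centring, 30.0% after rescaling, 43.4% with a pseudocount of 5 and 89.8% with voom, which moved the median of 11073 genes by -0.20 (centring), -0.17 (rescaling) and 0.65 (voom). Signs turned in 3 genes. After centring and rescaling *Cebpa* was at -0.055 and -0.33, *Gfi1* at -0.072 and -0.13 and *Mxd1* at -0.19 and -0.48. With samples left out *Cebpa* ranged from -0.55 to 0.75, *Gfi1* from -0.34 to 0.58 and *Mxd1* from -0.80 to 0.68. The causes were not tested.

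The replicate numbers do not pair the samples by the labels, and deviations of samples with the same number correlated at 0.0935, 0.199 and 0.0835 over genes, in each case above the correlation with any other number. With the replicate block 2 of the 9 were called higher (*Id1*, limma adjusted p = 0.113, and *Id2*).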
